A study of Mus musculus with 24 samples.

Results

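The genes described here are 10 costimulatory and checkpoint ligands that myeloid cells carry towards lymphocytes and other phagocytes: Cd274, Pdcd1lg2, Cd80, Cd86, Cd40, Vsir, Havcr2, Lgals9, Pvr and Sirpa. They were chosen by symbol, each being the row of the expression table whose Ensembl identifier, without its version, maps to that symbol, and all 10 were found among 17301 genes and passed the filter of 12878 genes tested. RNA had been sequenced from 4 myeloid populations sorted by flow cytometry, F4/80hi MHCIIhi macrophages, F4/80hi MHCIIlow macrophages, monocytes and neutrophils. Each population was taken from the lamina propria (LP) of the colon and from colon tumours, with 3 libraries in each of the 8 groups and 24 in all. LP cells came from C57BL/6J mice and tumour cells from adenomas of Apc Min/+ mice, whose germline Apc mutation is on the same background. These mice had been given dextran sodium sulphate (DSS), which induces colitis, to bring adenomas into the colon. All mice were young adults of both sexes, and each library was a pool of mice, here called by its roman number. The labels call the LP healthy, while the study's methods describe DSS for the control C57BL/6J mice too at another concentration. Which holds for these libraries is not settled. Genotype, tissue and the digestion used for each tissue change together between LP and tumour and cannot be told apart.

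T cells decide between activation and restraint partly by the ligands that a myeloid cell displays beside antigen. CD80 and CD86 bind the activating receptor CD28 and the inhibitory receptor CTLA-4. CD40 is the receptor through which T cells license a myeloid cell, and PD-L1 (encoded by Cd274) and PD-L2 (Pdcd1lg2) engage the inhibitory receptor PD-1. VISTA (Vsir) restrains T cells and is abundant on myeloid cells, galectin-9 (Lgals9) is a ligand of TIM-3 (Havcr2). The poliovirus receptor (Pvr) is bound by TIGIT, CD226 and CD96, and SIRP alpha (Sirpa) on phagocytes receives the "do not eat me" signal of CD47. In the colon, where macrophages live beside a dense microbiota, these genes are of interest because resident macrophages present antigen with little inflammation.

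Levels are given as RPKM, reads normalised to gene length and library size, so that genes can be compared per length. Differences are given as log2 fold changes of a limma model over all 24 libraries, called at a Benjamini-Hochberg adjusted p below 0.05 over the 12878 genes. Reads counted on genes ranged from 12838061 to 41718078 per library, and the recovered reads of the 10 genes were above a floor of 3 in every library. The fewest lay in LP MHCIIlow macrophages for Pdcd1lg2, with 10 to 32 reads, and in tumour neutrophils for Cd40, with 28 to 51 reads. The library sizes used in the deposited values were 0.466 to 0.682 of the reads counted in the 6 neutrophil libraries and 0.981 to 1.51 of them in the other 18. A neutrophil level rests on a large scaling between libraries. The sorted identities were checked against defining markers. Adgre1, which encodes F4/80, had 247 to 470 RPKM in the macrophage libraries and at most 108 RPKM elsewhere. The neutrophil genes S100a8 and Ly6g had at least 4493 and 42.5 RPKM in neutrophils and at most 60.2 and 1.61 RPKM elsewhere. Ly6c2 had 43.2 to 87.0 RPKM in monocytes and at most 0.539 RPKM in macrophages. Neutrophil libraries also held 42.6 to 131 RPKM of Ly6c2 and 18.6 to 37.9 RPKM of Siglecf, a gene of eosinophils. Prg2, another gene of eosinophils, had at most 18 reads in LP neutrophils and 0 reads in tumour neutrophils. Siglecf made up 83.1% of the summed eosinophil markers in LP neutrophils and 89.1% in tumour neutrophils. Whether these libraries held eosinophils was not tested. In sorted bulk cells, fewer cells carrying a transcript and less of it per cell cannot be told apart.

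**Figure D1:**
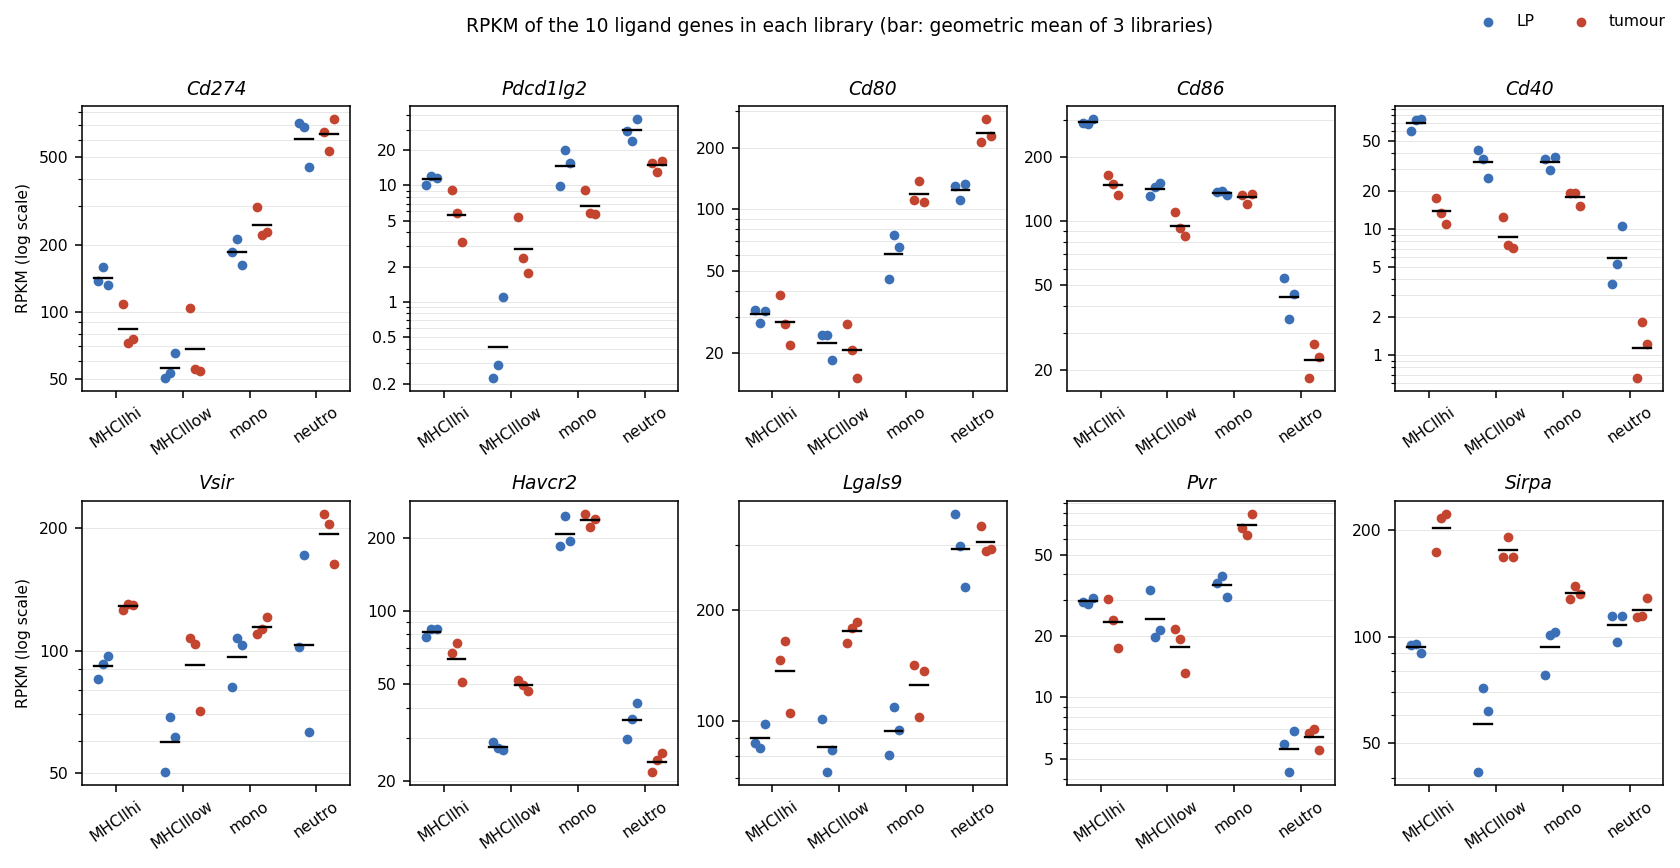
RPKM of the 10 genes (log scale, 1 panel per gene) in the 3 libraries of each group, with LP in blue, tumour in red and the geometric mean as a bar; "mono" and "neutro" stand for monocytes and neutrophils. On the deposited scale Cd40 and Cd86 were highest in LP MHCIIhi macrophages, Cd274 and Lgals9 in neutrophils, and Havcr2 and Pvr in monocytes. For Lgals9 the order of neutrophils over macrophages was not tested under other scalings. Cd80 was highest in tumour neutrophils on the deposited scale, an order over tumour monocytes that turned under quantile normalization and with summed reads as library sizes. Under both, the calls for Cd274 and Lgals9 in tumour neutrophils over tumour monocytes were lost.

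Tumour macrophages of both subsets carried more Sirpa and less Cd40 and Cd86 than their LP counterparts. Lgals9 was also called higher in both, although in the MHCIIhi subset the call was lost under 6 alternatives. Of the 10 genes, 2 were higher and 3 lower in tumour than in LP MHCIIhi macrophages, beside 8.01% of all genes tested that were higher and 11.5% that were lower. In MHCIIlow macrophages 4 were higher and 2 lower, beside 11.5% and 11.8% of all genes. Tumour monocytes had 2 higher and 0 lower, against 4.86% and 4.43% of all genes, and tumour neutrophils had 2 higher and 3 lower, against 13.1% and 19.0% of all genes. The median log2 fold change of the 10 genes was -0.36 in MHCIIhi macrophages, 0.46 in MHCIIlow macrophages, 0.33 in monocytes and 0.07 in neutrophils, beside medians over all genes of 0.00, 0.06, 0.00 and -0.12.

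**Figure D2:**
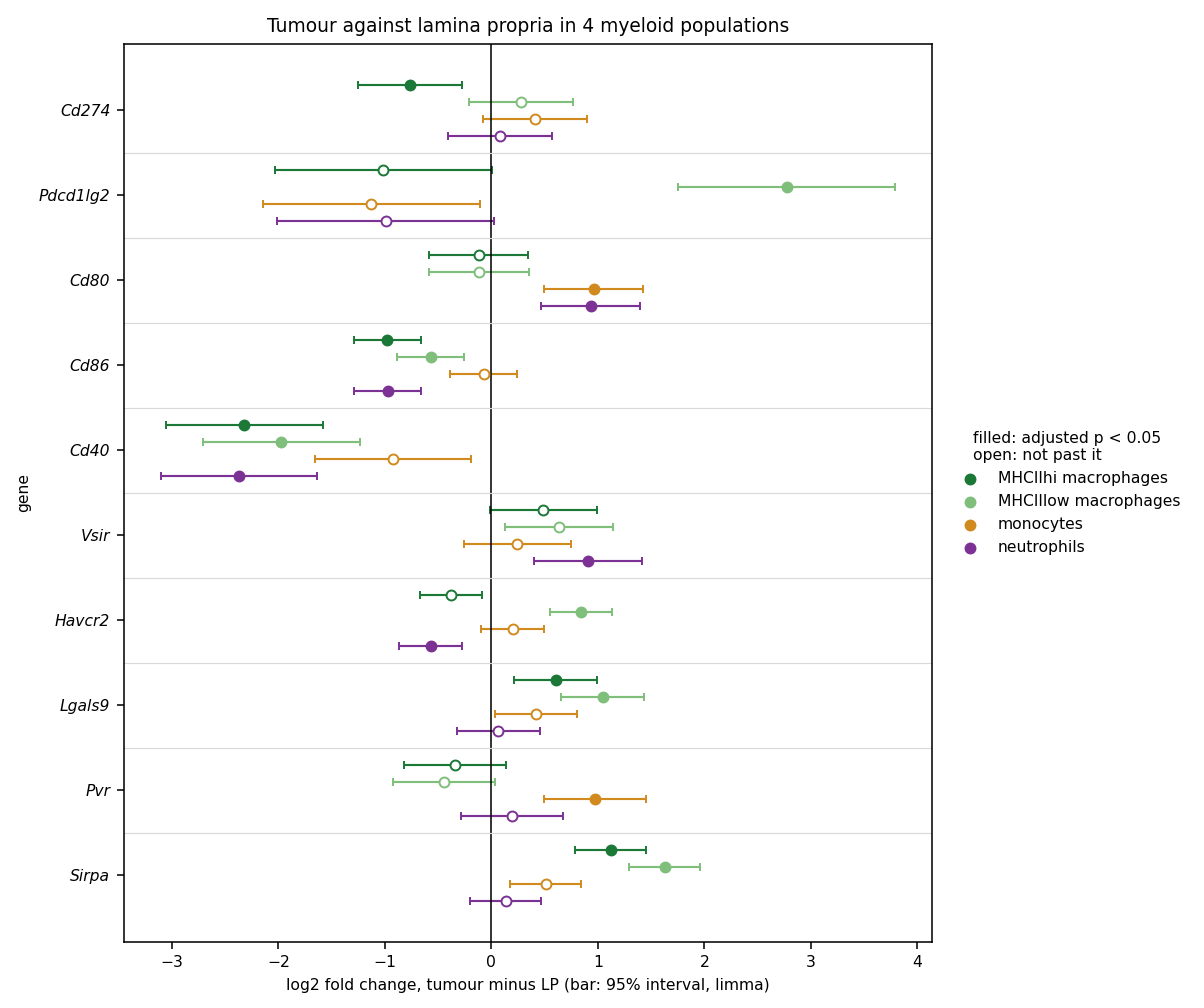
Log2 fold change of each gene, tumour minus LP, in the 4 populations (x axis), with 95% intervals from limma; filled points passed an adjusted p of 0.05. Cd40 and Cd86 lay left of 0 in every population and Sirpa, Vsir and Lgals9 right of it. Cd274, Pdcd1lg2 and Havcr2 lay on opposite sides of 0 in the 2 macrophage subsets.

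Between the macrophage subsets of the LP, 0 of the genes were higher and 5 lower in MHCIIlow than in MHCIIhi cells, where 2.13% and 5.57% of all genes tested were. Between the same subsets in tumours 0 were higher and 1 lower, with 0.567% of all genes in either direction. Against monocytes, the mean of both macrophage subsets was higher for 1 gene and lower for 4 in LP (12.5% and 17.0% of all genes) and likewise for 1 and 4 in tumour (16.8% and 21.4%). Neutrophils were higher than monocytes for 3 genes and lower for 4 in LP (24.1% and 30.4% of all genes), and higher for 5 and lower for 4 in tumour (23.3% and 34.9%). The 5 higher calls in tumour neutrophils were all lost when libraries were quantile normalized or sized by their summed reads, and in LP the call for Cd80 was lost under both and that for Cd274 under quantile normalization.

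The tumour effect itself was also compared between populations. It differed between MHCIIlow and MHCIIhi macrophages for 2 of the 10 genes, Pdcd1lg2 and Havcr2, both more positive in MHCIIlow cells, where 1.13% of all genes were more positive and 0.326% less. The call for Pdcd1lg2 was lost when only these 4 groups were fitted (adjusted p = 0.0943). Between neutrophils and monocytes it differed for 2 genes, Cd86 and Havcr2, both more negative in neutrophils, where 5.5% of all genes were more negative and 3.61% more positive. That for Cd86 was lost under quantile normalization (adjusted p = 0.0583) and that for Havcr2 under 6 alternatives. These comparisons share their LP and tumour libraries with those above and are not independent of them.

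The PD-1 ligands lie next to each other. Cd274 (ENSMUSG00000016496.7) is on chromosome 19 from 29367455 to 29388095 and Pdcd1lg2 (ENSMUSG00000016498.9) from 29410919 to 29471161, both on the plus strand of GRCm38 (GENCODE M21) and 22823 bases apart. An antisense gene, AC119228.1, overlaps 14.1% of the exon bases of Cd274, and since the SMART-seq2 libraries do not mark strand, reads of both genes cannot be told apart there. The 250 bases before the RefSeq start of each gene (GRCm38.p6) are shown because the neighbours are compared throughout, at chr19:29367188-29367437 for Cd274 and chr19:29410669-29410918 for Pdcd1lg2.
Cd274: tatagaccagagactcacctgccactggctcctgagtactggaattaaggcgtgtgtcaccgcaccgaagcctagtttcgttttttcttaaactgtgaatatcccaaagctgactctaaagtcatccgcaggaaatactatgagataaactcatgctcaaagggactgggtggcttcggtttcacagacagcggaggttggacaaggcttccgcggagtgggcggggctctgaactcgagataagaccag
Pdcd1lg2: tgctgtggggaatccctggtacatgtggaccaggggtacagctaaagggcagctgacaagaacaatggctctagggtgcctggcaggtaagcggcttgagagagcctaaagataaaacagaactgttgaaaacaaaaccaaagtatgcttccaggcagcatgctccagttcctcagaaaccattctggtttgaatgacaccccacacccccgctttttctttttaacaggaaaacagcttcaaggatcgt
These windows, all in lower case, held none of 4 strings searched on both strands, 1 form of a motif for each family of factors. They were GAAA, any 2 bases, GAAA for interferon regulatory factors and TTC, any 3 bases, GAA for STAT factors. For NF-kappaB the string was GGGA, any 2 bases, TTCC and for hypoxia-inducible factors ACGTG. Of 32851 promoter windows of the same length, 2.98%, 7.02%, 1.21% and 16.57% held these strings. Wider forms of the motifs were not searched, so such forms may lie in these windows.

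Cd274, the main PD-1 ligand, was a transcript of neutrophils more than of macrophages. LP neutrophils had 712, 684 and 451 RPKM in pools III, IV and V, and tumour neutrophils 652, 535 and 743 RPKM in pools I, II and V. The 2 ranges overlapped (log2 fold change 0.08, 95% interval -0.41 to 0.57, limma adjusted p = 0.834). On the deposited scale every neutrophil library lay above every library of the other populations. Monocytes came next, with 187, 213 and 164 RPKM in LP and 299, 223 and 229 RPKM in tumour. The lowest tumour value just exceeded the highest of LP (log2 fold change 0.41, SE 0.23, limma adjusted p = 0.326).

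Among LP macrophages, Cd274 was 138, 159 and 133 RPKM in the MHCIIhi subset and 50.6, 53.0 and 65.4 RPKM in the MHCIIlow subset, which were well separated. The MHCIIlow cells were 2.55-fold lower (log2 fold change -1.35, SE 0.23, limma adjusted p = 0.000926). In tumours the subsets overlapped, at 109, 72.5 and 75.7 RPKM and 104, 55.5 and 54.2 RPKM, pool I being the highest of both (log2 fold change -0.31, SE 0.23, limma adjusted p = 0.754). Within each of pools I, V and VII the MHCIIlow value was the lower. The 3 tumour MHCIIhi libraries were below the 3 of LP (log2 fold change -0.76, SE 0.23, limma adjusted p = 0.0257). This call was lost without LP pool III (adjusted p = 0.0554), LP pool IV (0.0974), tumour pool V (0.0994) or tumour pool VII (0.0954). In MHCIIlow macrophages tumour and LP did not differ beyond their spread (log2 fold change 0.28, SE 0.23, limma adjusted p = 0.443).

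The mean of both macrophage subsets was below monocytes for Cd274 in both tissues, with log2 fold changes of -1.06 in LP (limma adjusted p = 0.000482) and -1.72 in tumour (limma adjusted p = 1.03e-06). Neutrophils exceeded monocytes by 1.69 in LP and 1.36 in tumour on the log2 scale (limma adjusted p = 4.83e-06 and 5.15e-05). With library sizes taken as the summed reads the log2 differences were 0.87 and 0.23, and the second was no longer past the threshold (adjusted p = 0.373). Under quantile normalization the log2 differences were 0.51 and 0.0015, neither past the threshold (limma adjusted p = 0.0845 and 0.9965).

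Pdcd1lg2, the second PD-1 ligand, was nearly silent in one group. LP MHCIIlow macrophages had 0.225, 0.288 and 1.105 RPKM in pools II, III and IV, from 15, 10 and 32 reads, against 10.2, 12.1 and 11.7 RPKM in LP MHCIIhi macrophages. No library of one subset came near the other, and the difference was 27.2-fold (log2 fold change -4.77, SE 0.49, limma adjusted p = 7.02e-06). With so few reads the size is uncertain, the log2 fold change being -5.47 without MHCIIlow pool IV, -5.37 under quantile normalization and -3.04 with 1 RPKM added before the logarithm, and the call held under every alternative tried. In tumours the MHCIIlow subset had 5.41, 2.37 and 1.79 RPKM and the MHCIIhi subset 9.21, 5.80 and 3.27 RPKM. The ranges overlapped, while within each of pools I, V and VII the MHCIIlow value was the lower. Pool I was again highest in both (log2 fold change -0.98, SE 0.49, limma adjusted p = 0.478).

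Pdcd1lg2 was therefore 6.84-fold higher in tumour than in LP MHCIIlow macrophages, the 3 tumour libraries exceeding all 3 of LP (log2 fold change 2.77, SE 0.49, limma adjusted p = 0.000288). Without LP pool IV the log2 fold change was 3.48, and with 1 RPKM added before the logarithm it was 1.39. Fitted on these 2 groups alone the call was lost (adjusted p = 0.064). In the MHCIIhi subset the 3 tumour libraries were lower than the 3 of LP without passing the threshold (log2 fold change -1.01, 95% interval -2.03 to 0.00, limma adjusted p = 0.164). The tumour effect differed between the subsets by 3.79 on the log2 scale (SE 0.69, limma adjusted p = 0.00931). This difference was 4.49 without LP MHCIIlow pool IV and 2.28 with 1 RPKM added, and in the 4 groups alone it was no longer past the threshold (adjusted p = 0.0943).

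Outside the macrophages the 3 tumour values of Pdcd1lg2 lay below the 3 of LP in each population, without passing the threshold. Monocytes had 9.86, 20.1 and 15.6 RPKM in LP and 9.07, 5.79 and 5.66 RPKM in tumour (log2 fold change -1.13, SE 0.49, limma adjusted p = 0.172). Neutrophils had 29.3, 24.1 and 37.0 RPKM in LP and 15.6, 13.1 and 16.2 RPKM in tumour (log2 fold change -0.99, SE 0.49, limma adjusted p = 0.131). The LP and tumour ranges overlapped in neither population. With limma voom on the reads, tumour against LP passed the threshold in both, with adjusted p of 0.022 in monocytes and 0.0491 in neutrophils. The mean of both LP macrophage subsets was below LP monocytes (log2 fold change -2.75, SE 0.42, limma adjusted p = 5.12e-05, and -1.87 with 1 RPKM added). That mean joins unlike subsets, since the MHCIIhi libraries overlapped the monocytes and the MHCIIlow libraries lay far below them. Tumour neutrophils had more than tumour monocytes (log2 fold change 1.16, SE 0.49, limma adjusted p = 0.0476). That call was lost under 9 alternatives, among them any neutrophil library left out.

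Within a library, Cd274 was more abundant per length than Pdcd1lg2 everywhere, a ratio that scaling between libraries does not touch. The ratio was 11.4 to 13.6 in LP MHCIIhi macrophages and 59.2 to 224 in LP MHCIIlow macrophages. In tumours it was 11.8 to 23.1 in MHCIIhi macrophages, 19.3 to 30.3 in MHCIIlow macrophages, 33.0 to 40.5 in monocytes and 40.7 to 45.7 in neutrophils. LP monocytes (10.5 to 18.9) and LP neutrophils (12.2 to 28.4) lay wholly below their tumour counterparts in this ratio.

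CD80 and CD86 share the receptors CD28 and CTLA-4, and the balance of their transcripts within a library shifted from Cd86 in macrophages to Cd80 in neutrophils. Cd80 (ENSMUSG00000075122.4) is on chromosome 16 from 38455561 to 38496335 on the plus strand and Cd86 (ENSMUSG00000022901.9) on the same chromosome from 36603869 to 36666081 on the minus strand. Over the 24 libraries their log2 RPKM had a Pearson correlation of -0.698, a description in which the points of a group share their population. The ratio of Cd86 to Cd80 within a library was 8.89 to 10.2 in LP MHCIIhi macrophages, 5.35 to 8.21 in LP MHCIIlow macrophages, 1.86 to 3.02 in LP monocytes and 0.314 to 0.418 in LP neutrophils. In the tumour counterparts it was 4.35 to 6.09, 3.97 to 5.65, 0.875 to 1.25 and 0.087 to 0.101, and only in MHCIIlow macrophages did the tumour range meet that of LP. Between the macrophage subsets the genes did not run in opposite directions, both having lower means in MHCIIlow than in MHCIIhi cells of the same tissue. For Cd80 these differences were -0.47 in LP and -0.46 in tumour on the log2 scale and did not pass the test (limma adjusted p = 0.242 and 0.449).

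**Figure D3:**
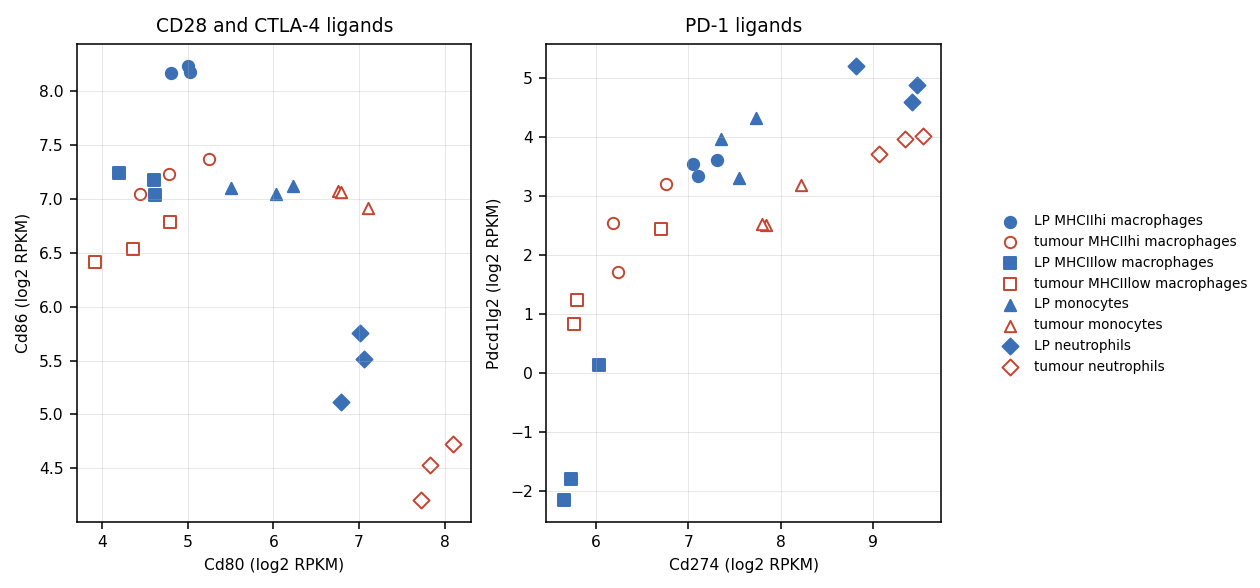
Log2 RPKM of the ligands of CD28 and CTLA-4 (left, Cd80 on the x axis and Cd86 on the y axis) and of PD-1 (right, Cd274 and Pdcd1lg2) in each of the 24 libraries, with LP filled, tumour open and a shape for each population. Neutrophils lie at the lower right on the left panel, and the 3 LP MHCIIlow macrophage libraries at the bottom left on the right panel.

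Cd86 was the most abundant of the CD28 ligands in macrophages and fell in tumour. LP MHCIIhi macrophages had 289, 287 and 301 RPKM, the highest group, and tumour MHCIIhi macrophages 165, 149.8 and 132 RPKM. These were 1.97-fold lower with no overlap (log2 fold change -0.98, SE 0.15, limma adjusted p = 8.65e-05). LP MHCIIlow macrophages had 131, 144 and 151 RPKM and tumour MHCIIlow macrophages 110.0, 92.5 and 85.4 RPKM, again without overlap (log2 fold change -0.57, SE 0.15, limma adjusted p = 0.00795). Cd86 thus fell in tumour in both subsets, and the difference between the 2 falls did not pass the test (0.40, 95% interval -0.04 to 0.85, limma adjusted p = 0.451).

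MHCIIlow macrophages had less Cd86 than MHCIIhi macrophages in LP (log2 fold change -1.04, SE 0.15, limma adjusted p = 0.00017) and in tumour (log2 fold change -0.64, SE 0.15, limma adjusted p = 0.0412). The second call was the only one of the 10 genes between the tumour subsets. It was lost on leaving out any of 5 of the 6 libraries, all but MHCIIlow pool I (adjusted p = 0.0536 to 0.16), in the 2 groups alone (0.262), without the filter on low values (0.0531) and with summed reads (0.0618).

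Monocytes had Cd86 levels of 138, 139 and 132 RPKM in LP and 133, 121 and 135 RPKM in tumour, with overlapping ranges (log2 fold change -0.07, 95% interval -0.38 to 0.24, limma adjusted p = 0.842). Neutrophils had the least, 54.1, 34.7 and 45.7 RPKM in LP and 18.5, 26.4 and 23.1 RPKM in tumour, and these did not overlap (log2 fold change -0.98, SE 0.15, limma adjusted p = 5.64e-05). The tumour effect in neutrophils minus that in monocytes was -0.90 (limma adjusted p = 0.0108), and under quantile normalization it was -0.62 and no longer called (adjusted p = 0.0583). Against LP monocytes, the mean of both LP macrophage subsets was higher by 0.58 (limma adjusted p = 0.00197). Only the MHCIIhi libraries lay above the LP monocytes, whereas the MHCIIlow libraries overlapped them. In tumour the difference was -0.12 (95% interval -0.39 to 0.15, limma adjusted p = 0.489), and under quantile normalization it was 0.38 and past the threshold.

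Cd80 rose in tumour monocytes and neutrophils and not detectably in macrophages. Monocytes had 45.6, 75.0 and 65.4 RPKM in LP pools III, IV and V and 110.5, 138 and 108 RPKM in tumour pools I, II and V, without overlap (log2 fold change 0.96, SE 0.22, limma adjusted p = 0.00876). Leaving out LP pool III, the lowest, gave a log2 fold change of 0.75 and an adjusted p of 0.0622, and the 2 groups alone gave 0.0563. Neutrophils had 129, 111 and 133 RPKM in LP and 212, 275 and 228 RPKM in tumour (log2 fold change 0.93, SE 0.22, limma adjusted p = 0.00323). The neutrophil call was lost under quantile normalization (log2 fold change 0.56) and with summed reads as library sizes (0.47). Tumour neutrophils were the highest group as deposited, 1.00 above tumour monocytes on the log2 scale (limma adjusted p = 0.000695), but -0.0907 and -0.13 from them under these 2 scalings.

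In macrophages Cd80 was 28.0 to 32.5 RPKM in the LP MHCIIhi subset, 21.7 to 38.0 RPKM in its tumour counterpart, 18.4 to 24.5 RPKM in the LP MHCIIlow subset and 15.1 to 27.7 RPKM in its tumour counterpart. All 4 ranges overlapped with their neighbours. The tumour differences were -0.12 (95% interval -0.59 to 0.34) and -0.12 (95% interval -0.58 to 0.35), neither past the threshold (limma adjusted p = 0.78 and 0.772). Macrophages, as the mean of both subsets, had less Cd80 than monocytes, with log2 fold changes of -1.21 in LP (limma adjusted p = 7.5e-05) and -2.29 in tumour (limma adjusted p = 9.66e-09).

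Cd40 (ENSMUSG00000017652.12, chromosome 2 from 165055627 to 165072948, plus strand), the receptor that answers CD40 ligand on T cells, showed the largest fall in tumour of the 10 genes in MHCIIhi macrophages, MHCIIlow macrophages and neutrophils. LP MHCIIhi macrophages had 60.4, 73.2 and 74.7 RPKM in pools III, IV and V, against 17.8, 13.5 and 11.1 RPKM in tumour pools I, V and VII, the latter 4.99-fold lower (log2 fold change -2.32, SE 0.35, limma adjusted p = 8.02e-05). LP MHCIIlow macrophages had 42.9, 36.2 and 25.6 RPKM and their tumour counterparts 12.4, 7.44 and 7.15 RPKM (log2 fold change -1.97, SE 0.35, limma adjusted p = 0.000335). The lowest LP macrophage library was above the highest tumour one, and both calls held under every alternative tried.

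Neutrophils had little Cd40, 3.67, 5.29 and 10.6 RPKM in LP and 0.661, 1.84 and 1.23 RPKM in tumour, again without overlap (log2 fold change -2.37, SE 0.35, limma adjusted p = 4.15e-05, and -1.67 with 1 RPKM added). In monocytes it was 36.0, 29.4 and 37.5 RPKM in LP and 19.4, 19.4 and 15.4 RPKM in tumour. Although the ranges were apart, the test was not passed (log2 fold change -0.93, SE 0.35, limma adjusted p = 0.111). Limma voom on the reads (adjusted p = 0.0119) and the fit of the 2 groups alone (0.0266) did pass. Neutrophils were below monocytes, with log2 fold changes of -2.53 in LP (limma adjusted p = 5.25e-06) and -3.97 in tumour (limma adjusted p = 1.02e-08). With summed reads these were -3.35 and -5.10. LP MHCIIhi macrophages were highest and tumour neutrophils lowest for Cd40 as for Cd86 (Pearson r = 0.932 over the 24 libraries, a description).

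Of 15 genes of CD40 and NF-kappaB signalling, which relay the CD40 signal, 0 were higher and 7 lower in tumour MHCIIhi macrophages, 0 and 5 in tumour MHCIIlow macrophages, 0 and 0 in monocytes, and 5 higher and 1 lower in neutrophils. Of all genes tested, 8.01% were higher and 11.5% lower in MHCIIhi macrophages, 11.5% and 11.8% in MHCIIlow macrophages, 4.86% and 4.43% in monocytes, and 13.1% and 19.0% in neutrophils. The median log2 fold changes of the 15 genes were -0.68, -0.48, 0.34 and 0.28, beside 0.00, 0.06, 0.00 and -0.12 over all genes. Traf1, an adaptor of TNF-family receptors, fell from 49.4 to 63.3 RPKM in LP MHCIIhi macrophages to 5.09 to 9.68 RPKM in tumour (log2 fold change -2.83, limma adjusted p = 6.86e-08). Nfkb1, which encodes the p50 precursor, fell in the MHCIIhi subset (-1.33, limma adjusted p = 2.52e-05) and in the MHCIIlow subset (-1.61, limma adjusted p = 2.01e-06). Relb, a subunit of the alternative pathway, fell by 1.32 on the log2 scale in MHCIIlow macrophages (limma adjusted p = 8.85e-06). In tumour neutrophils the NF-kappaB subunit Rel (log2 fold change 1.58, limma adjusted p = 3.02e-07) and the inhibitor Tnfaip3 (1.76, limma adjusted p = 3.47e-05) rose.

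Among 8 tested TNF-family ligands, other partners of lymphocytes, 1 was higher and 1 lower in tumour in each macrophage subset, 0 and 0 in monocytes, and 1 higher and 2 lower in neutrophils. With so few genes each count lies near the shares of all genes just given. Tnfsf14, which encodes LIGHT, was 22.4 to 31.6 RPKM in LP and 1.32 to 2.17 RPKM in tumour MHCIIhi macrophages (log2 fold change -3.99, limma adjusted p = 3.63e-07). It also fell in MHCIIlow macrophages (-3.71, limma adjusted p = 6.54e-07). Tnfsf13b, which encodes the B cell factor BAFF, rose from 1.16 to 2.60 RPKM in LP MHCIIlow macrophages to 22.3 to 34.3 RPKM in tumour (3.86, limma adjusted p = 5.26e-07) and by 2.20 in MHCIIhi macrophages (limma adjusted p = 0.00037).

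Markers of other cells moved with the falls of Cd40, Cd86 and Cd274. In MHCIIhi macrophages 3 of the 8 tested dendritic cell markers were lower in tumour and 0 higher, beside 11.5% and 8.01% of all genes. The summed level of the 11 in the table was 65.0 to 86.3 RPKM in LP and 7.97 to 20.0 RPKM in tumour, of which Ccr7 made up 67.1% and 63.9%. Flt3, a defining gene of dendritic cells, had at most 0.508 RPKM in these LP libraries and 0.036 RPKM in tumour. The study describes leaving out dendritic cells high in CD11c and MHCII, and how complete this was here was not tested. Zbtb46, another defining gene, had 0.252 to 0.559 RPKM in these LP libraries and at most 0.138 RPKM in tumour. In MHCIIlow macrophages the summed dendritic cell markers were 10.4 to 22.1 RPKM in LP and 5.68 to 8.36 RPKM in tumour. Flt3 had 0 reads in LP and at most 2 in tumour there. Zbtb46 had 0.023 to 1.344 RPKM in LP MHCIIlow macrophages and 0.125 to 0.291 RPKM in their tumour counterparts. In neutrophils the summed dendritic cell markers were 103 to 210 RPKM in LP and 3.83 to 23.9 RPKM in tumour, with 5 of 8 lower. The summed B and plasma cell markers were 423 to 1399 RPKM in LP and 72.3 to 111 RPKM in tumour, with 3 of 8 lower. Jchain made up 87.0% of the LP sum and Ighm 69.5% of the tumour sum. Of all genes tested, 19.0% were lower in tumour neutrophils. Fibroblast markers were lower for 5 of 6 in each tumour population, beside 4.43% to 19.0% of all genes. Their sums were 7.59 to 62.0 RPKM over the LP libraries and 0.38 to 1.77 RPKM over the tumour libraries. The part of these cells in the results was not tested.

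Vsir (ENSMUSG00000020101.10, chromosome 10 from 60346851 to 60372684, plus strand), which encodes VISTA, was present in every population and rose in tumour neutrophils. Neutrophils had 102, 172 and 63.1 RPKM in LP pools III, IV and V and 218, 206 and 164 RPKM in tumour pools I, II and V, and the LP pools spread widely. LP pool IV exceeded the lowest tumour library (log2 fold change 0.91, SE 0.24, limma adjusted p = 0.00708). Without LP pool V the log2 fold change was 0.55 and the call was lost (adjusted p = 0.0544), as it was in the 2 groups alone (0.165), under quantile normalization (0.0786) and with summed reads (0.162).

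Epithelial markers moved with the rises of Vsir and Cd80 in tumour neutrophils. Of 10 such markers 3 were higher in tumour and 0 lower, beside 13.1% and 19.0% of all genes. Their summed level was 17.4 to 77.8 RPKM in LP and 184 to 364 RPKM in tumour, without overlap. Epcam had 2.05 to 8.68 RPKM in LP and 22.7 to 43.8 RPKM in tumour neutrophils. Of 7 monocyte markers 2 were higher and 0 lower, with sums of 665 to 812 RPKM in LP and 957 to 1321 RPKM in tumour. Of 8 neutrophil markers 1 was higher and 0 lower. Their sums were 12158 to 16077 RPKM in LP and 23690 to 32834 RPKM in tumour, without overlap. Ly6g had 42.5 to 91.8 RPKM in LP and 179 to 415 RPKM in tumour neutrophils. The part of these cells and markers in the rises was not tested.

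In MHCIIhi macrophages Vsir was 85.2, 92.8 and 97.3 RPKM in LP and 126, 130.1 and 129.9 RPKM in tumour. The 3 tumour libraries were nearly equal and all above LP, without the test being passed (log2 fold change 0.49, SE 0.24, limma adjusted p = 0.178). MHCIIlow macrophages had 50.2, 68.5 and 61.3 RPKM in LP and 107, 104 and 70.9 RPKM in tumour, with no overlap (log2 fold change 0.63, SE 0.24, limma adjusted p = 0.0653). Monocytes were at 81.3 to 107 RPKM in LP and 109.9 to 121 RPKM in tumour (log2 fold change 0.24, 95% interval -0.26 to 0.75, limma adjusted p = 0.628). Against monocytes, neutrophils differed by 0.10 in LP (limma adjusted p = 0.75) and 0.76 in tumour (limma adjusted p = 0.0107), and both differences were below 0 with summed reads, at -0.73 and -0.37.

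On the deposited scale the transcripts of TIM-3 and its ligand galectin-9 peaked in different cells, Havcr2 in monocytes and Lgals9 in neutrophils. The order of neutrophils over macrophages for Lgals9 was not tested under other scalings. Library sizes in the values were 0.466 to 0.483 of the reads in tumour neutrophils and 1.314 to 1.507 of them in tumour MHCIIlow macrophages. Havcr2 (ENSMUSG00000020399.10) is on chromosome 11 from 46454935 to 46481255 on the plus strand and Lgals9 (ENSMUSG00000001123.11) on the same chromosome from 78962974 to 78984946 on the minus strand. The ratio of Lgals9 to Havcr2 within a library was 0.435 to 0.571 over the 6 monocyte libraries and 5.48 to 15.5 over the 6 neutrophil libraries.

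Havcr2, an inhibitory receptor that myeloid cells also carry, rose in tumour MHCIIlow macrophages. LP MHCIIlow macrophages had 28.7, 27.3 and 26.8 RPKM, tightly grouped, and tumour MHCIIlow macrophages 52.1, 49.6 and 46.9 RPKM. These were 1.79-fold higher without overlap (log2 fold change 0.84, SE 0.14, limma adjusted p = 0.000172). MHCIIhi macrophages had 78.3, 84.6 and 83.8 RPKM in LP and 67.3, 73.4 and 51.2 RPKM in tumour, the tumour libraries all lower but not past the threshold (log2 fold change -0.38, SE 0.14, limma adjusted p = 0.0658). The tumour effect differed between the subsets by 1.22 on the log2 scale (95% interval 0.80 to 1.64, limma adjusted p = 0.00355), a call kept under every alternative tried.

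MHCIIlow macrophages had 2.98-fold less Havcr2 than MHCIIhi macrophages in LP (log2 fold change -1.57, SE 0.14, limma adjusted p = 1.18e-06), whereas in tumour the difference was -0.35 (95% interval -0.65 to -0.06, limma adjusted p = 0.293). Monocytes had 185, 245 and 193 RPKM in LP and 251, 221 and 239 RPKM in tumour, overlapping (log2 fold change 0.20, SE 0.14, limma adjusted p = 0.449). Macrophages lay below them, with log2 fold changes of -2.11 in LP and -2.08 in tumour (limma adjusted p = 1.7e-10 and 6.47e-11). Neutrophils had 29.8, 35.8 and 41.9 RPKM in LP and 21.7, 24.2 and 26.01 RPKM in tumour, apart (log2 fold change -0.57, SE 0.14, limma adjusted p = 0.00415). The call was lost when libraries were centred on their median (adjusted p = 0.102) and in the 2 groups alone (0.0576).

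Other measures moved with the differences of the MHCIIlow subset. H2-Ab1, an MHCII gene of the kind the gate was set on, was 102 to 715 RPKM in LP and 359 to 2118 RPKM in tumour MHCIIlow macrophages (log2 fold change 1.72, limma adjusted p = 0.0426). Itgax, which encodes CD11c, was 3.54 to 20.3 RPKM and 85.0 to 116 RPKM (3.37, limma adjusted p = 1.85e-06). Of 8 neutrophil markers, 4 were higher and 0 lower in tumour, beside 11.5% and 11.8% of all genes. Their sums were 31.0 to 89.2 RPKM in LP and 256 to 691 RPKM in tumour, of which Mmp9 made up 90.2% in tumour. The defining gene Ly6g had 0 reads in LP and at most 40 in tumour. Between the LP subsets 3 of 8 dendritic cell markers were lower in MHCIIlow cells, beside 5.57% of all genes. The part of these measures in the results for Pdcd1lg2, Havcr2, Lgals9 and Sirpa was not tested.

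**Figure D4:**
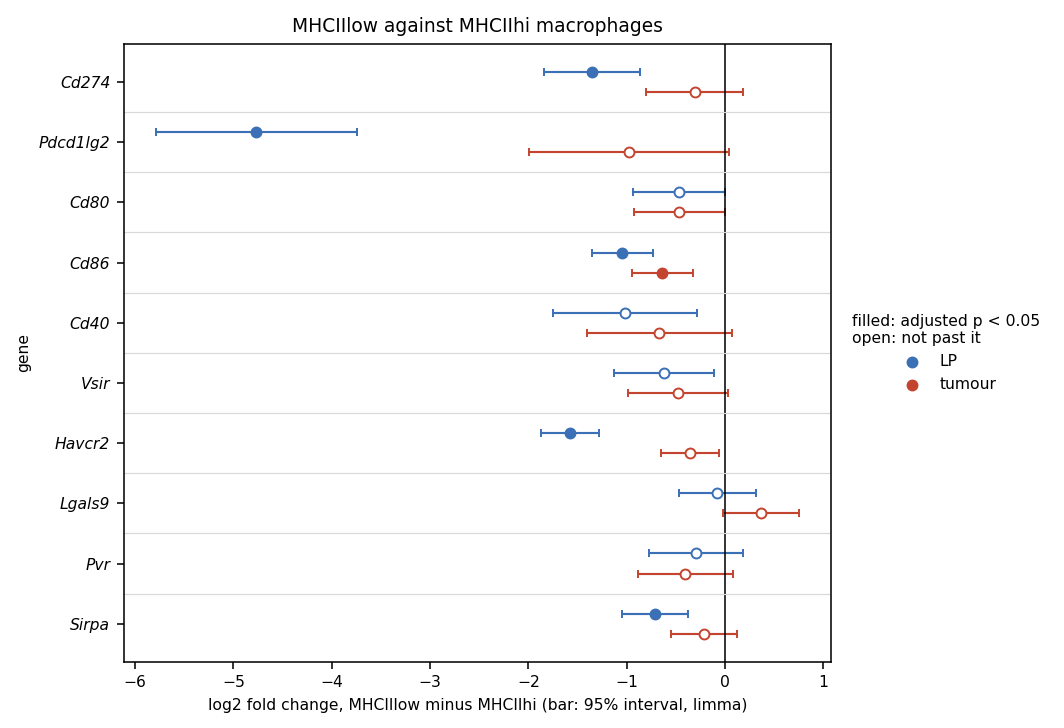
Log2 fold change of each gene, MHCIIlow minus MHCIIhi macrophages (x axis), in LP (blue) and tumour (red), with 95% intervals from limma; filled points passed an adjusted p of 0.05. In LP, Cd274, Pdcd1lg2, Cd86, Havcr2 and Sirpa were lower in MHCIIlow cells, and in tumour only Cd86 passed.

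Lgals9, a secreted lectin, was called higher in both tumour macrophage subsets, under every alternative in the MHCIIlow subset only. MHCIIlow macrophages had 101, 72.5 and 83.4 RPKM in LP and 162, 178 and 185 RPKM in tumour, 2.06-fold higher and far from overlapping (log2 fold change 1.04, SE 0.19, limma adjusted p = 0.000318). MHCIIhi macrophages had 87.1, 84.1 and 98.0 RPKM in LP pools III, IV and V and 146, 164 and 105 RPKM in tumour pools I, V and VII, and tumour pool VII was just above LP. The difference was called (log2 fold change 0.60, SE 0.19, limma adjusted p = 0.026). That call was lost without LP pool III (adjusted p = 0.0759), LP pool IV (0.0901), tumour pool I (0.0835) or tumour pool V (0.126), with libraries centred on their median (0.0604) and in the 2 groups alone (0.0736), while that of the MHCIIlow subset held under every alternative.

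Monocytes had 80.5, 109 and 94.1 RPKM of Lgals9 in LP and 141, 102 and 136 RPKM in tumour, with a small overlap (log2 fold change 0.42, SE 0.19, limma adjusted p = 0.185). Neutrophils had 364, 297 and 229.9 RPKM in LP and 337, 288 and 293 RPKM in tumour, overlapping (log2 fold change 0.07, 95% interval -0.32 to 0.45, limma adjusted p = 0.829). Neutrophils exceeded monocytes by 1.64 in LP (limma adjusted p = 3.75e-07) and 1.29 in tumour (limma adjusted p = 6.9e-06), of which the first was 0.81 and the second 0.15 and not called with summed reads. Lgals9 ran against Cd40 over the 24 libraries (Pearson r = -0.896, a description).

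In the form searched, Lgals9 alone of the 6 members with a RefSeq promoter held the motif of interferon regulatory factors, 55 to 46 bases before its start. Havcr2 alone held the ACGTG motif, 100 to 96 bases before its start. The 250 bases before the start of Lgals9 are shown for that match, at chr11:78984925-78985174 on the minus strand of GRCm38.p6, written along the gene, with the match in capitals (the motif lies on the other strand).
Lgals9: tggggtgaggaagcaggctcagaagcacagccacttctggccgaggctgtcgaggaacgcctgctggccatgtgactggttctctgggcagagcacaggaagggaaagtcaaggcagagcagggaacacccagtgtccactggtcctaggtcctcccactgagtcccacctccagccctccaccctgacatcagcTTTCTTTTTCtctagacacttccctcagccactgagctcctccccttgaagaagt
A match of letters is a description of the window and says nothing about what binds there.

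Of 14 genes of interferon-gamma and STAT signalling, which is known to act on Cd274 and Lgals9, 1 was higher and 6 lower in tumour MHCIIhi macrophages, 6 higher and 7 lower in MHCIIlow macrophages, 2 and 2 in monocytes, and 1 and 4 in neutrophils. The shares over all genes were 8.01% higher and 11.5% lower, 11.5% and 11.8%, 4.86% and 4.43%, and 13.1% and 19.0% in the same order. The median log2 fold changes of the list were -0.05, -0.75, -0.23 and -0.10. Stat5a, a transcription factor of cytokine receptors, fell in tumour in all 4 populations, by 2.50, 2.83, 1.05 and 1.29 on the log2 scale (limma adjusted p = 1.38e-06, 2.84e-07, 0.0162 and 0.00103). Socs1, a feedback inhibitor of JAK kinases, fell by 2.04, 2.04 and 2.42 in MHCIIhi macrophages, MHCIIlow macrophages and neutrophils (limma adjusted p = 0.000358, 0.000272 and 3.8e-05). Socs3 rose in tumour monocytes (0.94, limma adjusted p = 0.0215). Between the LP subsets Ifngr1, a chain of the interferon-gamma receptor, was 42.1 to 44.5 RPKM in MHCIIlow and 108 to 127 RPKM in MHCIIhi macrophages (log2 fold change -1.43, limma adjusted p = 7.92e-06). In tumour it was higher in both subsets without overlap, at 126 to 136 RPKM in MHCIIlow and 190 to 244 RPKM in MHCIIhi macrophages.

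Pvr (ENSMUSG00000040511.9, chromosome 7 from 19903578 to 19921160, minus strand), a nectin-like ligand of TIGIT and CD226, had its highest means in monocytes, close to macrophages in LP, and rose in tumour monocytes. They had 67.5, 62.6 and 79.4 RPKM in tumour and 36.5, 39.3 and 31.0 RPKM in LP, the 2 highest groups, 1.96-fold apart without overlap (log2 fold change 0.97, SE 0.23, limma adjusted p = 0.00966). Without LP pool V the call was lost, at an adjusted p of 0.0517. Neutrophils had the lowest levels, 5.91, 4.31 and 6.87 RPKM in LP and 6.67, 7.04 and 5.54 RPKM in tumour, overlapping (log2 fold change 0.19, SE 0.23, limma adjusted p = 0.564). The difference between the 2 tumour effects did not pass the test (-0.78, 95% interval -1.46 to -0.10, limma adjusted p = 0.141).

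Macrophages had 28.7 to 30.8 RPKM of Pvr in the LP MHCIIhi subset, 17.4 to 30.4 RPKM in its tumour counterpart, 19.7 to 33.4 RPKM in the LP MHCIIlow subset and 13.2 to 21.7 RPKM in its tumour counterpart. These overlapped, with tumour differences of -0.34 (95% interval -0.82 to 0.14, limma adjusted p = 0.346) and -0.45 (95% interval -0.93 to 0.03, limma adjusted p = 0.177). Macrophages against monocytes had a log2 fold change of -1.77 in tumour (limma adjusted p = 5.18e-07) and -0.41 in LP. In LP the test was not passed in the model without pools (limma adjusted p = 0.137) and was passed with the pool as a fixed replicate block (-0.51, adjusted p = 0.0246).

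In monocytes, the population of the Cd80 and Pvr calls, 3 of 10 epithelial markers were higher in tumour and 0 lower. Of all genes 4.86% were higher and 4.43% lower there. The summed epithelial markers were 25.0 to 227 RPKM in LP and 122 to 371 RPKM in tumour. Epcam had 1.94 to 38.8 RPKM in LP and 14.6 to 46.0 RPKM in tumour monocytes. Of 7 monocyte markers 0 were higher and 0 lower in tumour. Their sums were 983 to 1410 RPKM in LP and 3156 to 3850 RPKM in tumour, of which Chil3 made up 53.4% and 68.7%. Ly6c2 overlapped, at 43.2 to 87.0 RPKM in LP and 53.6 to 72.1 RPKM in tumour monocytes. Pvr is known to be made by epithelial cells too, and the part of such cells was not tested.

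Sirpa (ENSMUSG00000037902.14, chromosome 2 from 129592835 to 129632228, plus strand), the inhibitory receptor of CD47 on phagocytes, rose in both tumour macrophage subsets. MHCIIlow macrophages had 41.4, 71.6 and 61.8 RPKM in LP pools II, III and IV and 168, 191 and 168 RPKM in tumour pools I, V and VII, 3.09-fold higher (log2 fold change 1.63, SE 0.16, limma adjusted p = 4.29e-07). MHCIIhi macrophages had 94.5, 95.6 and 89.9 RPKM in LP and 173, 216 and 223 RPKM in tumour (log2 fold change 1.12, SE 0.16, limma adjusted p = 4.08e-05). The tumour libraries of both subsets lay far above those of LP, both calls held under every alternative, and the difference between the 2 rises did not pass the adjusted test (0.50, 95% interval 0.03 to 0.98, limma adjusted p = 0.344).

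Sirpa in monocytes was 78.2, 101 and 103 RPKM in LP and 128, 139 and 132 RPKM in tumour, apart but just short of the threshold (log2 fold change 0.51, SE 0.16, limma adjusted p = 0.0513). With the pool as a random replicate block the threshold was passed (adjusted p = 0.0476). Neutrophils overlapped, at 115, 96.4 and 114 RPKM and 114, 115 and 128 RPKM (log2 fold change 0.14, 95% interval -0.20 to 0.47, limma adjusted p = 0.555). LP MHCIIlow macrophages were lower than MHCIIhi macrophages (log2 fold change -0.72, SE 0.16, limma adjusted p = 0.00827). The call was lost without MHCIIlow pool II (adjusted p = 0.0525), with the pool as a fixed replicate block (log2 fold change -0.46, adjusted p = 0.0835), in the 2 groups alone (0.111) and with summed reads (0.101). Tumour macrophages were above tumour monocytes by 0.50 (limma adjusted p = 0.00687), a call lost when libraries were centred on their median (adjusted p = 0.0624).

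Of 9 genes of the SIRP family and its signalling partners, 4 were higher in tumour MHCIIhi macrophages, 7 in tumour MHCIIlow macrophages and 1 in tumour monocytes, with 0 lower in each. In neutrophils 2 were higher and 1 lower. Of all genes 8.01%, 11.5%, 4.86% and 13.1% were higher in these 4 populations, and 19.0% were lower in neutrophils. The median log2 fold changes of the 9 genes were 0.76, 1.37, 0.54 and 0.04. Ptpn6, which encodes the phosphatase SHP-1 that SIRP alpha recruits, was 36.0 to 41.1 RPKM in LP and 103 to 134 RPKM in tumour MHCIIhi macrophages (log2 fold change 1.66, limma adjusted p = 6.73e-06). It also rose in monocytes (0.82, limma adjusted p = 0.0125) and neutrophils (1.14, limma adjusted p = 0.000249). Sirpb1b and Sirpb1c, activating relatives of Sirpa, rose in MHCIIlow macrophages by 3.66 and 4.70 (limma adjusted p = 5.62e-07 and 7.34e-05). These relatives are close copies among which reads may be shared, so their values are uncertain. Skap2, an adaptor of SIRP alpha, rose in tumour neutrophils (1.05, limma adjusted p = 4.85e-06).

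Of 13 other ligands of the B7, butyrophilin, nectin and SLAM families that were tested, 2 were higher and 3 lower in tumour in each of MHCIIhi macrophages, MHCIIlow macrophages and neutrophils, and 1 and 1 in monocytes. Of all genes 8.01% were higher and 11.5% lower in MHCIIhi macrophages, 11.5% and 11.8% in MHCIIlow macrophages, 13.1% and 19.0% in neutrophils, and 4.86% and 4.43% in monocytes, and the counts in neutrophils were near those shares. Between the subsets 0 were called in either tissue. Cd200r1, the receptor of the restraining ligand CD200, fell from 37.6 to 60.9 RPKM in LP MHCIIlow macrophages to 10.5 to 11.8 RPKM in tumour (log2 fold change -2.16, limma adjusted p = 0.000151) and in monocytes by 2.05 (limma adjusted p = 0.000978). Tnfrsf14, which encodes HVEM, rose in the MHCIIhi and MHCIIlow subsets by 1.73 and 2.37 (limma adjusted p = 0.000842 and 2.51e-05). Cd47 itself was 63.9 to 68.9 RPKM in LP and 95.2 to 113 RPKM in tumour monocytes (0.65, limma adjusted p = 0.000978). Lgals3, another galectin, fell in MHCIIhi macrophages (-2.21, limma adjusted p = 3.35e-06).

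Of 10 tested receptors through which lymphocytes bind these ligands, 0 were higher and 1 lower in tumour MHCIIhi macrophages, 1 and 1 in MHCIIlow macrophages, 0 and 0 in monocytes, and 0 and 5 in neutrophils, where 13.1% of all genes were higher and 19.0% lower. The counts in the other populations were near those of all genes. Cd28 was 5.59 to 13.03 RPKM in LP and 0.099 to 0.258 RPKM in tumour MHCIIlow macrophages (log2 fold change -5.72, limma adjusted p = 8.27e-05). Tnfrsf9, the receptor 4-1BB, rose in the same cells (1.91, limma adjusted p = 0.00584). Cd3e, a defining gene of T cells, had at most 18 reads in these LP libraries and 51 in tumour. The summed T and NK cell markers were 40.2 to 63.0 RPKM and 26.7 to 29.1 RPKM there, of which Cd4 made up 91.3% and 79.4%.

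Over the 24 libraries the genes fell into patterns that mostly followed population. Cd274 and Cd80 had a Pearson correlation of 0.927 on the log2 scale, Cd86 and Cd40 0.932, Havcr2 and Pvr 0.795, and Cd274 and Pdcd1lg2 0.788, while Cd86 and Lgals9 had -0.865. Among tested genes outside the 10, those whose levels were most like Cd274 were Rab11fip1 (r = 0.973), Chp1 (0.968) and Btg1 (0.966), and those most like Cd80 were Cd14 (0.977), Chd7 (0.973) and Gpr132 (0.972). Pdcd1lg2 was nearest to Plbd1 (0.937), Csf2rb (0.893) and Gcnt2 (0.865). These correlations describe libraries that share population, tissue and scaling.

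Cd40 was nearest to Slc35f6 (0.975), Ifi207 (0.958) and Cyb5r3 (0.949), and Cd86 to Slamf8 (0.962), Scpep1 (0.946) and the same Ifi207 (0.945). Havcr2 was nearest to Ripk2 (0.948), Ccr2 (0.938) and Ms4a4c (0.933), Lgals9 to Rinl (0.94), Sephs2 (0.939) and Ncf1 (0.935), and Pvr to Eef1a1 (0.952), Lrp1 (0.947) and Mcub (0.942). Vsir and Sirpa had no gene as close, with Pcsk7 (0.88), Arhgef2 (0.852) and Umad1 (0.824) for Vsir and B4galnt1 (0.899), Man2b1 (0.871) and Sgk1 (0.868) for Sirpa.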

How the data were processed

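RNA of 24 sorted pools (2 ng each, SMART-seq2, a kit that does not mark strand, and Nextera XT) had been sequenced. Per the labels and the study's methods, the authors aligned reads with STAR 2.3, counted them with featureCounts 1.5 on GENCODE genes of GRCm38, dropped genes with few reads and deposited log2 RPKM values, 1 column per library. The values held a prior count of 0.25 reads and scaled library sizes; all 415224 values came out as whole reads within 0.005 reads. RPKM and reads were recovered from them. The 12878 genes whose mean reached 1 RPKM in any of the groups were tested on the deposited log2 scale with limma 3.58.1 (R 4.3.3), 1 mean per group over all 24 libraries, a trended prior and Benjamini-Hochberg adjustment. On simulated data for the MHCIIhi comparison over 12878 genes, 55% of log2 changes of 1 and 100% of changes of 2 were recovered, with 6.1% false calls. The simulation gave every gene the same dispersion and every group the same baseline, and changed only genes above a minimum of expected reads. These rates therefore need not hold for the deposited values, whose spread differs between genes and groups. Other genes named were the 2 largest called changes per list in each comparison of tumour with LP or of the macrophage subsets, taken where the higher group had a mean of 5 RPKM or more; those mentioned are a part of them, beside defining cell markers. The 10 genes and all lists were chosen with earlier results of these data known. Labels number the pools as donors shared by populations of a tissue; same-numbered libraries of a tissue had correlations of their deviations of -0.0661 to 0.255 (29 pairs, median 0.0169), and the fit was made without a block, none being named in the study's methods. The methods describe each group as pools from independent experiments, while which experiment a pool number marks is not given; p-values measure the spread between these pools. Alternatives covered the pseudocount, the filter, scaling, weights, voom, blocks and leaving out each library.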

Additional observations from a re-analysis of the deposited data

Results flagged for a closer look

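The tumour effect, the log2 difference between tumour and LP, differed between populations by a test of the difference itself for 4 results. For Pdcd1lg2 it was 3.79 higher in MHCIIlow than in MHCIIhi macrophages (limma adjusted p = 0.00931) and for Havcr2 1.22 higher (limma adjusted p = 0.00355). In neutrophils minus monocytes it was -0.90 for Cd86 (limma adjusted p = 0.0108) and -0.77 for Havcr2 (limma adjusted p = 0.0194). The call for Pdcd1lg2 was lost in a fit of the 4 groups alone, that for Cd86 under quantile normalization, and the second for Havcr2 under 6 alternatives, 2 of which leave out LP monocyte pool III or LP neutrophil pool V.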

How the results depend on the processing

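Of 54 calls among the 10 genes, 33 were made under every alternative that could be fitted and 21 were lost under at least 1. The alternative with summed reads for library sizes was added after seeing the data. Where a result below changed, the cause was not tested. Genes called in tumour against LP numbered 3 to 5 in MHCIIhi macrophages with 1 library left out, against 5. In monocytes, against 2, they numbered 5 with log2(RPKM + 1), 4 with array weights, 5 with voom, and 1 to 2 with 1 library left out. In neutrophils they were 3 under quantile normalization, against 5. Between the tumour macrophage subsets, against 1, they were 0 without a filter, 0 with only the libraries compared, 2 with array weights, 0 with summed reads and 0 to 1 with 1 library left out. Tumour neutrophils against monocytes gave 5 under quantile normalization and 5 with summed reads, against 9. For the difference in tumour effect, the macrophage subsets gave 1 with only the libraries compared, against 2; neutrophils minus monocytes, against 2, gave 0 under quantile normalization, 1 with centred libraries, 1 with only the libraries compared, 1 with voom, 4 with summed reads and 1 to 3 with 1 library left out. The sign turned for Cd86 in tumour macrophages against monocytes under quantile normalization (0.38). In LP neutrophils against monocytes it turned for Vsir (-0.64 with quantile normalization, -0.73 with summed reads) and Sirpa (-0.54 and -0.62), and in tumour for Cd80 (-0.0907 and -0.13) and Vsir (-0.26 and -0.37). Summed reads moved the median over all genes from -0.24 to -1.05 in LP and from -0.36 to -1.45 in tumour neutrophils against monocytes.

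With the pool as a fixed replicate block, which could not be fitted for tumour against LP within a population, the paired value of Sirpa in LP MHCIIlow against MHCIIhi macrophages was -0.46 (adjusted p = 0.0835) and the call was lost. Pvr in LP macrophages against monocytes (-0.51, adjusted p = 0.0246) and Pdcd1lg2 in LP neutrophils against monocytes (1.03, adjusted p = 0.016) were gained, and a random block gained Sirpa in tumour monocytes (0.52, adjusted p = 0.0476). The block changed no other call. Depth limits Pdcd1lg2 in LP MHCIIlow macrophages and Cd40 in tumour neutrophils, where reads were fewest.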
